A study of Mus musculus with 11 samples.

Results

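The NKG2D recognition system of the epidermis was followed in RNA-seq libraries of sorted keratinocytes (KCs) and dendritic epidermal T cells (DETCs). Its 8 genes were chosen by name and matched to the Ensembl identifiers of the gene table, and they made up 8 of the 52550 genes listed. Of these, 5 encode ligands (H60b, H60c, Raet1d, Raet1e and Ulbp1) and 3 encode the receptor and its adaptors (Klrk1, Hcst and Tyrobp). All mice were 8 weeks old, and the labels give every library as female. The LC-/- mice, labelled DTA, are huLangerin-DTA mice, in which diphtheria toxin subunit A is made under human langerin sequences, so that Langerhans cells (LCs) are missing from birth. Their controls were wild type (WT) littermates. There were 3 WT and 3 LC-/- KC libraries, and 3 WT and 2 LC-/- DETC libraries, each numbered here in the order of the number in its label, so that LC-/- DETC libraries carry the numbers 2 and 3. KCs were sorted as live CD45- cells and DETCs as live CD45+ cells, both without MHC-II, langerin or c-kit, and no T cell receptor marker was in the sort. The labels name no strain, and the study mentions an FVB background for its LC-/- mice.

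NKG2D is an activating receptor on NK cells and several T cell subsets, and it is found on DETCs, the γ/δ T cells that live between the KCs of mouse skin. It binds cell surface proteins related to MHC class I, the H60, RAE-1 and MULT1 families, which stressed, infected or transformed cells can display, and H60c is the family member best known from skin. The receptor has no signalling motif of its own. It signals through DAP10 (encoded by Hcst), which recruits PI3-kinase and Grb2, and in mice also through DAP12 (encoded by Tyrobp), whose ITAM recruits Syk-family kinases.

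All 5 ligand genes lie on chromosome 10 of GRCm38. H60c is at chr10:3256208-3267771 and Ulbp1, which encodes MULT1, at chr10:7440362-7473638, both on the minus strand and 4173 kb apart. H60b (chr10:22158586-22288849), Raet1d (chr10:22360552-22374139) and Raet1e (chr10:22158569-22374139) lie on the plus strand, where the annotated span of Raet1e covers both of the others. Klrk1 is at chr6:129610323-129623864 on the minus strand. Tyrobp (chr7:30413760-30417585, plus strand) and Hcst (chr7:30417712-30419854, minus strand) are neighbours whose ends face each other across 126 bases, and they share no exon base.

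The bases before the start of H60c and Ulbp1 are shown because the KC and DETC levels of these ligands were in opposite order. Those before Klrk1 and Hcst are shown because both genes had almost no reads in KCs. Sequences were taken from the RefSeq promoter table for GRCm38.p6, which held 7 entries for 6 of the 8 genes, and each runs 5′ to 3′ on the strand of its gene. Capitals mark matches, on either strand, to 7 short motifs. H60c is shown at chr10:3267772-3268021 (minus strand), Ulbp1 at chr10:7473639-7473727 (minus strand), Klrk1 at chr6:129623865-129624114 (minus strand) and Hcst at chr7:30419855-30420104 (minus strand). For Ulbp1 the 161 bases next to the RefSeq start were left out because GENCODE places them in an exon.
H60c: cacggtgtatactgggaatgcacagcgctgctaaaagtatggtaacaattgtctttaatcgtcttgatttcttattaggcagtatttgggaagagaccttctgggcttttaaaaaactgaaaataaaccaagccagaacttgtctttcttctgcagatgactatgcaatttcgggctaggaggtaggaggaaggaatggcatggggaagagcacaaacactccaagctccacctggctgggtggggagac
Ulbp1: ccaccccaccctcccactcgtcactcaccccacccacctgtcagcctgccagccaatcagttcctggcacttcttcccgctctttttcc
Klrk1: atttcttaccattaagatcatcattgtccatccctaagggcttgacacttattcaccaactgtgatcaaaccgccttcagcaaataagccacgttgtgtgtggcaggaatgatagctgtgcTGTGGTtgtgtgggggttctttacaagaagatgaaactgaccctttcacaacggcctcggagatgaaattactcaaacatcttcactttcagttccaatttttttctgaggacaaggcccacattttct
Hcst: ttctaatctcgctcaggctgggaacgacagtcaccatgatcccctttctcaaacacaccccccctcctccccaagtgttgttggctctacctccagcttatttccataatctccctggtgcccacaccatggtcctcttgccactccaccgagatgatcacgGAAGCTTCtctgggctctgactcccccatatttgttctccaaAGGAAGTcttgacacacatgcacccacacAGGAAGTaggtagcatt

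The GC content was 45.2% in the H60c window, 61.8% in the Ulbp1 window, 42.8% in the Klrk1 window and 52.4% in the Hcst window. Klrk1 held 1 RUNX match (TGTGGT), a motif present in 14.0% of the 32851 windows of 250 bases in the table. Hcst held 2 ETS matches (AGGAAGT, 7.69% of windows) and 1 heat shock element match (GAANNTTC, 6.69%). The other motifs searched were AP-1 (TGANTCA, 6.75%), the GC box (GGGCGG, 32.7%), the TATA box (TATAAA, 12.4%) and the E-box (CACGTG, 6.02%). None of the 7 matched the H60c window, which says only that these letters are not there. The window of 250 bases of Ulbp1 held 1 ETS match (ACTTCCT, on the opposite strand to the motif as written), which starts at position 90, directly after the 89 bases printed and 161 bases before the RefSeq start, inside the exon that GENCODE places there.

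Raet1d and Raet1e are near copies, and this bears on how their reads could be counted. Their coding sequences in GENCODE transcripts, 747 bases in Raet1d (chr10:22362715-22372331, plus strand, introns included) and 753 bases in Raet1e (chr10:22174320-22182088, plus strand, introns included), were 93.5% identical in a global alignment. The first 120 coding bases are shown with the single differing base in capitals.
Raet1d: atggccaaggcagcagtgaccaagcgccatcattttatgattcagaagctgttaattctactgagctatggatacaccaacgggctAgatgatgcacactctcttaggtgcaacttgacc
Raet1e: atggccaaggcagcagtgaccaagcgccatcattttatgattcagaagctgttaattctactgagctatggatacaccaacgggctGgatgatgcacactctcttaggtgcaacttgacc

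Exon bases shared with another gene on the same strand made up 25.2% of Raet1d, 23.0% of Raet1e and 11.0% of H60b. Only 55.9% of all windows of 75 bases (the read length) in Raet1d transcripts, and 65.8% of those in Raet1e transcripts, were absent from every other gene. The corresponding share was 94.6% for H60b, 95.6% for H60c, 99.3% for Ulbp1, and 100% for Klrk1, Hcst and Tyrobp. A count of 0 for Raet1d or Raet1e is therefore uncertain, because reads that fit several genes may not have been counted. H60 and RAE-1 genes are also known to differ between mouse strains, the reads were aligned to GRCm38, a reference of a strain other than FVB, and the part of strain in these zeros was not tested. Other H60 and RAE-1 genes (H60a, Raet1a, Raet1b and Raet1c) were looked for by name. The gene table held 0 of these 4, so they could not be measured here.

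Each library held 13491075 to 19750440 reads on genes. Values are normalized counts, which are reads divided by the size factor of the library, and in the 11 libraries a count of 0 allowed up to 3 reads or 2.48 to 3.32 normalized counts (counting error only). Cd207, which encodes langerin, had 6.15 to 26.9 normalized counts in WT KCs and 0 in all LC-/- KCs, and 16.5 to 46.7 in WT DETCs against 0 and 4.42 in LC-/- DETCs. The DETC libraries carried both T cell and KC transcripts. Trdc, the constant chain of the δ receptor, had 23250 to 39123 normalized counts there and at most 2.05 in KCs. The median of 24 keratinocyte genes in a DETC library was 15.4% (WT 1), 15.6% (WT 2), 18.1% (WT 3), 26.1% (LC-/- 2) and 16.3% (LC-/- 3) of their value in the KC library of the same number, and this is called the keratinocyte share below. Neither the labels nor the methods say that a number stands for an animal. Transcripts of α/β T cells were also present in the DETC libraries, with Cd8a, a chain of the CD8 coreceptor, at 786, 2092 and 1716 in WT and at 378 and 2825 in LC-/- libraries.

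The first comparison was between the populations in WT mice, and it asked which cells transcribe each gene. Receptor and adaptor genes were DETC transcripts. Among ligands, H60c was the KC transcript and Ulbp1 the DETC transcript, while H60b had a few reads in DETCs alone and Raet1d and Raet1e had 0 reads in all 11 libraries. A read was found for 6 of the 8 genes, and 5 (H60c, Ulbp1, Klrk1, Hcst and Tyrobp) passed the filter of a read count scaled to library size (CPM) above 1 in at least 2 libraries.

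H60c had 898, 854 and 800 normalized counts in WT KCs (851 ± 49.2, SD, n = 3) and 132, 113 and 119 in WT DETCs (121 ± 9.76). Every KC value was above every DETC value, and the log2 fold change of DETCs against KCs was -2.80 (SE 0.10, limma with Benjamini-Hochberg, adjusted p = 6.94e-09). The DETC value of H60c was 13.2% to 20.1% of the KC library of the same number, over both genotypes. The keratinocyte share multiplied by the KC value gave 104% to 130% of the H60c measured in each DETC library, so that 0 of 5 libraries held more H60c than their keratinocyte genes would carry.

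Ulbp1 showed the opposite order. It had 47.1, 60.3 and 45.8 normalized counts in WT KCs (51.1 ± 8.0, SD, n = 3) and 657, 871 and 826 in WT DETCs (785 ± 113). Again the populations did not overlap, with a log2 fold change of 3.92 (SE 0.15, limma, adjusted p = 1.41e-08). The keratinocyte share gave 0.602% to 1.10% of the Ulbp1 in each DETC library. In the other direction, the summed level of 14 DETC marker genes was 14.7 to 39.9 in the KC libraries of both genotypes and 185224 to 226059 in the DETC libraries. Per kb of merged exons, H60c was 40.3 ± 5.93 times the level of Ulbp1 in WT KCs (SD, n = 3) and 0.378 ± 0.0902 times its level in WT DETCs.

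**Figure D1:**
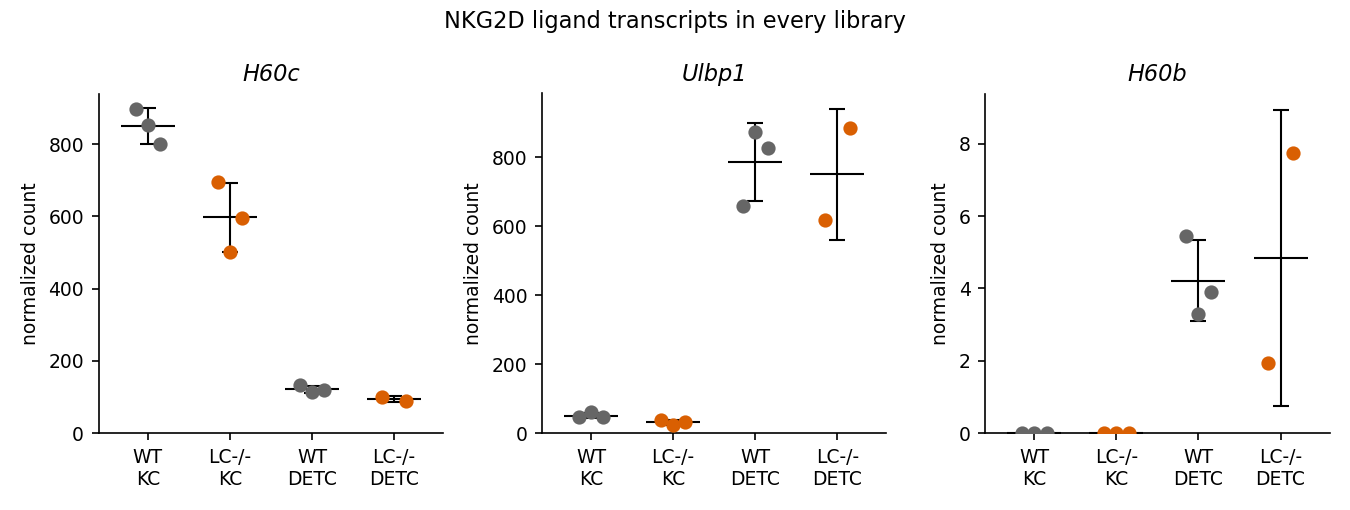
Normalized counts (vertical axis, from 0, with a scale of its own for each gene) of H60c, Ulbp1 and H60b in each library. Points are libraries, horizontal bars group means and error bars SD, with WT in grey (n = 3 per population) and LC-/- in orange (n = 3 KCs, n = 2 DETCs). H60c was higher in KCs, Ulbp1 was higher in DETCs, and H60b stayed below 8 normalized counts.

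H60b was at the edge of detection. It had 0 reads in all 6 KC libraries, 5, 4 and 4 reads in WT DETCs (5.46, 3.30 and 3.89 normalized counts), and 2 and 7 reads in LC-/- DETCs (1.94 and 7.74). The LC-/- values lay on both sides of the WT values, and H60b did not pass the filter and was not tested. Raet1d and Raet1e were also not tested.

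Klrk1, which encodes NKG2D, had 7449, 7507 and 6823 normalized counts in WT DETCs (7260 ± 379, SD, n = 3), and 0 to 2 reads in each of the 6 KC libraries. Hcst had 545, 540 and 552 in WT DETCs (546 ± 6.39) and again 0 to 2 reads in each KC library. Tyrobp had 214, 146 and 219 in WT DETCs (193 ± 40.6), with 4, 5 and 2 reads in WT KCs. All 3 were called higher in DETCs, as were Ulbp1 and, in the other direction, H60c. That made 5 of 5 tested genes against 76% of all 14419 tested genes, and the 3 receptor genes could pass the filter through DETC libraries alone, so their call says little beyond their presence there.

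Levels were also set per kb of merged exons to compare genes with each other. In WT DETCs Klrk1 was at 1011 ± 52.8 per kb, above 95.1% of all tested genes. Hcst was at 756 ± 8.85 per kb (above 93.3%), Tyrobp at 289 ± 60.9 per kb (above 82.7%), Ulbp1 at 117 ± 16.8 per kb and H60c at 43.0 ± 3.46 per kb. The ranges of these neighbours in the order did not overlap. The merged exons of Klrk1 and Hcst contain annotated retained introns, and with the longest protein-coding transcript as the length, an alternative chosen after seeing the data, the levels were 2271 ± 119 for Klrk1, 1234 ± 14.4 for Hcst, 323 ± 68.1 for Tyrobp, 132 ± 19.0 for Ulbp1 and 43.0 ± 3.46 for H60c, in the same order.

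The second comparison asked whether ligand transcripts of KCs differ in the absence of LCs. Both detected ligands were lower in LC-/- KCs, H60c with a fitted change of -30.2% and Ulbp1 of -37.5%, and neither passed the adjusted threshold of limma. For H60c the values were 898, 854 and 800 in WT KCs, and 694, 503 and 596 in LC-/- KCs (598 ± 95.6, SD, n = 3). All LC-/- libraries were below all WT libraries. The log2 fold change was -0.52 (SE 0.13, 95% interval -0.84 to -0.20, limma, adjusted p = 0.0746).

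The H60c call depended on the test. edgeR's quasi-likelihood test gave an adjusted p of 0.00858, and DESeq2, the test that the study used, 0.000958. limma gave 0.0114 with a minimum mean of 10 in place of the filter and 0.0273 in a single fit over all 11 libraries. Over the 11 alternatives that kept all libraries, the limma, edgeR and DESeq2 adjusted p was 0.000958 to 0.165 and passed in 4. With each KC library left out in turn it was 0.0775 to 0.206 and passed in 0 of 6, and the log2 fold change stayed between -0.63 and -0.40 in all alternatives.

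For Ulbp1 the KC values were 47.1, 60.3 and 45.8 in WT, and 38.6, 24.4 and 32.6 in LC-/- libraries (31.9 ± 7.09, SD, n = 3). The groups did not overlap, although the values rest on 24 to 65 reads per library. The log2 fold change was -0.68 (SE 0.22, 95% interval -1.22 to -0.13, limma, adjusted p = 0.126), and the adjusted p was 0.0561 to 0.242 over the alternatives and passed in none of 11. At an unadjusted p under 0.05 limma counted both ligands, and adjusted over all genes it called 0 of 2. In the same fit 1.85% of the tested genes were called lower, and in 14.9% of them every LC-/- library was below every WT library. The summed level of the 24 keratinocyte genes was 768177 to 812820 in WT KCs and 761557 to 813261 in LC-/- KCs, so that the overall KC signal overlapped between genotypes. H60c relative to Ulbp1, per kb, was 33.8 to 45.5 in WT and 43.0 to 49.1 in LC-/- KCs, and these ranges overlapped.

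Among receptor genes in KCs, only Tyrobp was called by limma. All 3 receptor genes passed the filter through DETC libraries alone, and with a minimum mean of 10 none of them was tested in KCs. It had 4.10, 4.64 and 1.73 normalized counts (11 reads in all) in WT KCs and 0 reads in each LC-/- KC library. Against a floor of 3 reads per library this was at least 1.06-fold lower. limma gave an adjusted p of 0.0252 (0.00462 to 0.0648 over the alternatives), edgeR 0.0597 and no filter 0.0648, and DESeq2 returned none. The call was lost in 5 of 6 fits that left out a library and held only without WT library 3. Most tested LC markers were lower in the same libraries as well. The summed level of 16 LC markers was 345 to 505 in WT KCs and 171 to 273 in LC-/- KCs, and 10 of the 12 tested were below 0 in log2 fold change with 3 called lower (Cd207, H2-Aa and Cd74). The sum of 9 dermal macrophage and monocyte markers was 36.3 to 42.7 in WT and 55.1 to 69.4 in LC-/- KCs. That sum rests on few genes, as 5 of the 9 had 0 reads in WT KCs and 7 in LC-/- KCs. Of these markers, 3 were tested and 0 called, and 2 were below 0 in log2 fold change (median -0.30). Fcer1g, which encodes another ITAM adaptor, had 1.75 ± 2.28 normalized counts in WT and 0 in LC-/- KCs. LCs are missing in LC-/- mice, and the part of LC transcripts in the Tyrobp value of WT KCs was not tested. In WT libraries, LCs left after the sort and LC transcripts held by KCs cannot be told apart in sorted bulk RNA. For lower MHC-II pathway genes in KCs, the study proposes the loss of LCs as a source of mRNA. Hcst (log2 fold change -0.30, limma adjusted p = 0.760) and Klrk1 (0.24, limma adjusted p = 0.803) had too few KC reads for a difference to be detectable at this depth. Over all genes 7.23% were called in either direction in KCs.

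The third comparison asked the same of the receptor in DETCs. Klrk1 had the highest values in both LC-/- libraries, Hcst and Tyrobp overlapped between genotypes, and none of the 3 was called. Klrk1 had 7449, 7507 and 6823 normalized counts in WT DETCs, and 8241 and 9057 in LC-/- DETCs (8649 ± 577, SD, n = 2). Both LC-/- libraries were above all WT libraries, as was the case for 21.3% of all tested genes. The log2 fold change was 0.25 (SE 0.10, 95% interval 0.03 to 0.47, unadjusted p = 0.0306 and adjusted p = 0.204 by limma). Over 12 alternatives the adjusted p was 0.198 to 0.979, and with quantile normalization the log2 fold change was -0.01.

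Hcst had 545, 540 and 552 normalized counts in WT DETCs, and 490 and 577 in LC-/- DETCs (534 ± 61.4, SD, n = 2). The WT libraries lay between the 2 LC-/- libraries. The log2 fold change was -0.04 (95% interval -0.29 to 0.21, limma, adjusted p = 0.895), which spans a decrease of 17.9% and an increase of 15.9%.

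Tyrobp had 214, 146 and 219 in WT DETCs, and 184 and 121 in LC-/- DETCs (152 ± 44.5, SD, n = 2), with overlap between genotypes. limma gave a log2 fold change of -0.35 (SE 0.25, 95% interval -0.92 to 0.22, adjusted p = 0.493). For the receptor and its adaptors together limma called 0 of 3 and counted 1, Klrk1, at an unadjusted p under 0.05, and both edgeR and DESeq2 called 0. The background in DETCs was 3.56% of tested genes called.

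**Figure D2:**
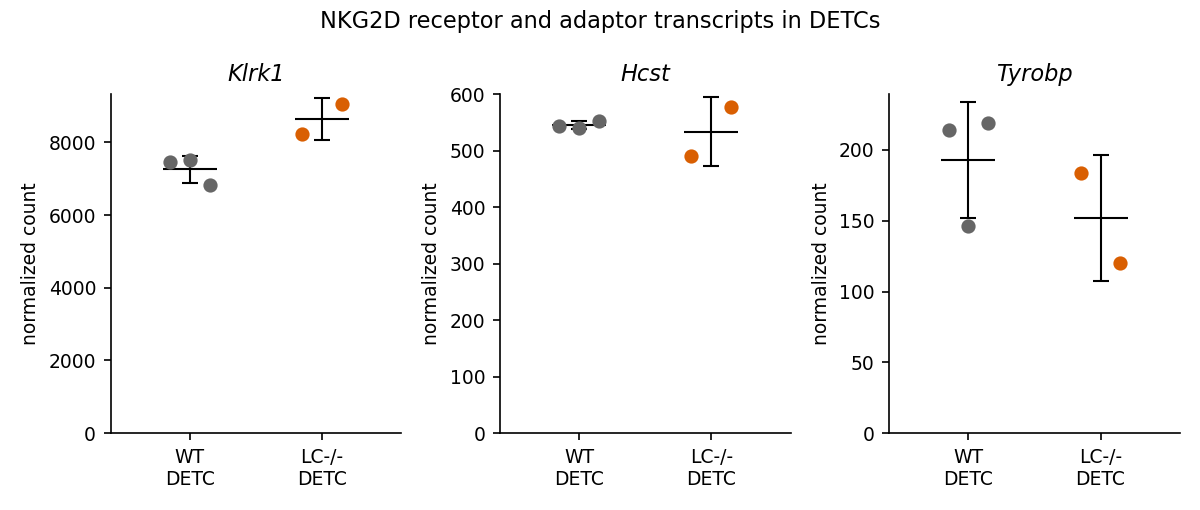
Normalized counts (vertical axis, from 0) of Klrk1, Hcst and Tyrobp in DETC libraries. Points are libraries, with means and SD for WT (grey, n = 3) and LC-/- (orange, n = 2). Both LC-/- points lie above the WT points for Klrk1 (8241 and 9057 against at most 7507), while the genotypes overlap for Hcst and Tyrobp.

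Neither the receptor nor an adaptor was called in DETCs, and the ratio of their levels was also set out by library. Klrk1 relative to Hcst, per kb, was 1.24 to 1.40 in WT DETCs and 1.58 to 1.69 in LC-/- DETCs, without overlap. Klrk1 relative to Tyrobp was 2.90 to 4.77 in WT and 4.17 to 6.98 in LC-/- DETCs, with overlap. These ratios were looked at after the values were known and are given without a test. How often ratios of other genes separate the genotypes in this way was not counted.

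Markers of other cells differed between the DETC libraries as well. For 7 α/β T cell markers the summed level ranged from 9798 to 11751 in WT DETCs, and LC-/- DETCs had the lowest and the highest sum (7563 and 13946). Sums of 10 markers of dermal γ/δ T17 cells were 5443 to 7434 in WT and 4318 to 4567 in LC-/- DETCs. limma called 3 of these 10 lower and DESeq2 7, beside 0.43% and 2.06% of all genes in DETCs. Sums of 16 LC markers were 3781 to 4456 in WT and 2821 to 2926 in LC-/- DETCs. All 12 tested were below 0 in log2 fold change, with 5 called lower by limma and 3 by DESeq2. Cd207 was 0 and 4.42 in these LC-/- libraries, so the LC marker sum is not a measure of LCs alone. The sum of 14 DETC markers was 215839 to 226059 in WT and 185224 to 195096 in LC-/- libraries. Of these 14, 13 were below 0 in log2 fold change, and limma called 1 lower (Trdv4) and DESeq2 4. NK and ILC1 markers (7 genes) summed to 636 to 856 in WT and 939 to 1105 in LC-/- DETCs, and of them Itga2 was called higher and Klrb1c lower. In KCs the same 7 genes summed to more, 1544 to 2184 in WT and 2546 to 3226 in LC-/- libraries, although 5 of them had 0 reads there. This sum is therefore not particular to NK or ILC1 cells. Cells of these types can carry Klrk1, Hcst or Tyrobp, and their part in the values of the 3 genes was not tested.

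For ligands in DETCs, Ulbp1 had 657, 871 and 826 normalized counts in WT and 617 and 883 in LC-/- libraries (750 ± 189, SD, n = 2). The LC-/- libraries were the lowest and the highest of the 5. The log2 fold change was -0.08 (95% interval -0.49 to 0.33, limma, adjusted p = 0.860), which spans a decrease of 28.7% and an increase of 25.9%, and leaving out WT library 2 or LC-/- library 2 turned it to 0.0031 and 0.18. Ulbp1 had the same order over the 5 DETC libraries as Cd8a, from LC-/- library 2 with the lowest values to LC-/- library 3 with the highest, an order noticed after the values were seen and not tested. H60c had 132, 113 and 119 in WT DETCs and 101 and 88.5 in LC-/- DETCs, and both LC-/- libraries were below all WT libraries, as in 16.5% of tested genes. Its log2 fold change was -0.35 (SE 0.18, limma, adjusted p = 0.327), and with the keratinocyte share subtracted the remainder was 0 in all 5 libraries.

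**Figure D3:**
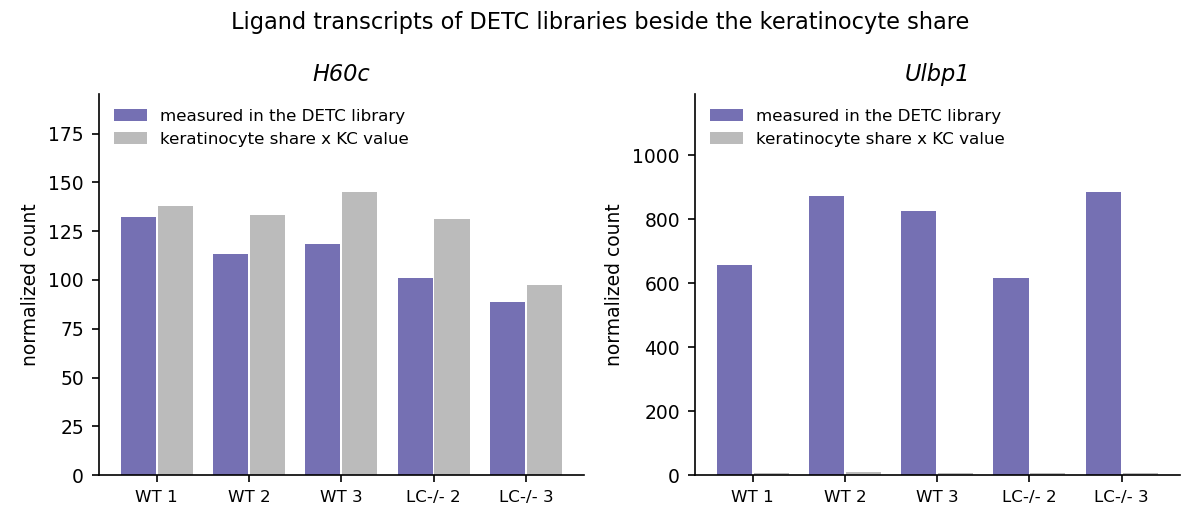
Measured normalized counts of H60c and Ulbp1 in each DETC library (purple bars) beside the value that the keratinocyte share of that library would give, the share multiplied by the KC library of the same number (grey bars). For H60c the grey bars are as high as the purple ones or higher (104% to 130%), and for Ulbp1 they are 0.602% to 1.10% of them.

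The last test asked whether the genotype difference itself differed between KCs and DETCs. None of the 5 tested genes was called, against 0.798% of all tested genes, and edgeR and DESeq2 also called 0. At an unadjusted p under 0.05 there was 1, Tyrobp, whose KC values rest on 11 reads. The change in DETCs minus the change in KCs was 0.17 for H60c (95% interval -0.24 to 0.57, limma, adjusted p = 0.816) and 0.60 for Ulbp1 (-0.05 to 1.25, limma, adjusted p = 0.496). No DETC library held more H60c than its keratinocyte share would give, so for H60c the test cannot be read as a comparison of the populations. The source of the H60c reads in DETC libraries was not tested. For Ulbp1 it does not show that the difference is particular to KCs.

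**Figure D4:**
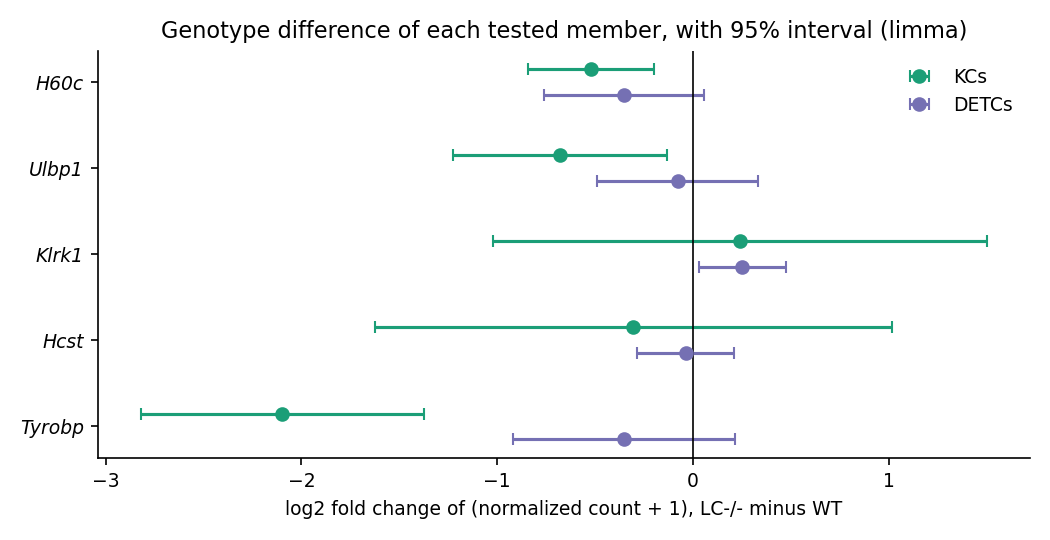
Log2 fold changes of normalized count plus 1 (horizontal axis, LC-/- minus WT) of the 5 tested genes in KCs (green) and DETCs (purple), with 95% intervals from limma. The KC intervals of H60c (-0.84 to -0.20) and Ulbp1 (-1.22 to -0.13) lie below 0, those of Klrk1 and Hcst in KCs are wide because of 0 to 2 reads per library, and the Tyrobp value in KCs rests on 11 reads.

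Genes with the most similar profiles were named by the root mean square difference of log2 values, each centred on its mean, over all 11 libraries. For H60c these were Ripply3 (0.141), Gnai1 (0.162) and Rnase4 (0.167), whose WT values were also higher in KCs than in DETCs. For Ulbp1 they were Id2 (0.196), Tnf (0.203) and Fam129a (0.220). For Klrk1 they were Rhoh (0.354), Arap3 (0.377) and Cxcr6 (0.381), for Hcst Sp110 (0.298), Prox2 (0.329) and Itgax (0.379), and for Tyrobp Rgs18 (0.385), Ccdc69 (0.448) and Scml4 (0.509). The 11 points share population and library, and most of the likeness is the step between KCs and DETCs.

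Genes around NKG2D were then read from 6 lists, and their counts stand beside the shares of all tested genes. Klrk1 and Hcst had 0 to 2 reads in each KC library, so signalling and effector genes called in KCs were not read as NKG2D signalling or output. In KCs limma called 5.37% of all genes higher and 1.85% lower (7.23% together), edgeR called 12.4%, and DESeq2 called 10.7% higher and 4.73% lower. In DETCs limma called 3.13% higher and 0.43% lower (3.56% together), edgeR 3.35%, and DESeq2 8.36% higher and 2.06% lower. DESeq2 shares are over the genes to which it gave an adjusted p. Of 18 signalling genes downstream of the adaptors, limma called 0 higher and 1 lower in KCs, a share near that of all genes. In DETCs limma called 0 (before adjustment, at p under 0.05, it counted 4 above and 1 below WT), edgeR 0 and DESeq2 2 higher. The KC gene was Pik3r1, the p85 regulatory subunit of PI3-kinase, at 1559, 1398 and 1765 in WT and 1171, 1148 and 1097 in LC-/- libraries (log2 fold change -0.46, limma adjusted p = 0.0479). In DETCs, Pik3cd, the δ catalytic subunit of PI3-kinase, was at 14818 ± 934 in WT and 14219 ± 1258 in LC-/- libraries, and Pik3r1 at 10823 ± 310 and 10810 ± 174. The median log2 fold change of the list was -0.02 in KCs and 0.04 in DETCs, against -0.01 and 0.02 over all tested genes.

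Of 14 effector genes, limma called 1 lower in each population, beside 1.85% of all genes in KCs and 0.43% in DETCs. In DETCs it was Prf1, which encodes the pore-forming protein perforin, at 5876, 6104 and 5743 in WT and 4056 and 3480 in LC-/- libraries, without overlap (log2 fold change -0.65, SE 0.10, limma adjusted p = 0.0189). In KCs it was Tnf, the gene of an inflammatory cytokine, at 179, 193 and 237 in WT and 122, 105 and 127 in LC-/- libraries (-0.77, SE 0.14, limma adjusted p = 0.0426). Gzmb, the gene of granzyme B, was at 363 ± 138 in WT and 638 ± 586 in LC-/- DETCs (limma adjusted p = 0.703), and Ifng, the gene of interferon-γ, at 826 ± 419 and 1044 ± 951 (limma adjusted p = 0.964), with LC-/- SDs near the size of their means. The median over the list was 0.08 in DETCs.

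Genes of the DNA damage and stress responses, which are known to act upstream of NKG2D ligands, were next. limma called 4 of 16 higher and 0 lower in KCs (before adjustment 6 and 3), beside 5.37% and 1.85% of all genes, and DESeq2 called 6 higher and 1 lower, beside 10.7% and 4.73%. Mdm2, a p53 target that restrains p53, had the largest change, from 2129, 2195 and 2152 in WT to 3804, 3386 and 4204 in LC-/- KCs (log2 fold change 0.81, SE 0.08, limma adjusted p = 0.0193). Egfr, the epidermal growth factor receptor, rose by 0.58 on the log2 scale, Ddit3, a factor of the unfolded protein response, by 0.45, and Atf4, a factor of the integrated stress response, by 0.39 (limma adjusted p = 0.0446, 0.0252 and 0.0428). H60c and Ulbp1 had lower values in the same libraries. In DETCs limma called 0 of 16 (before adjustment 7 above and 1 below WT), edgeR 0 and DESeq2 6 higher. List medians were 0.13 in KCs and 0.17 in DETCs.

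Of 9 genes for ligand shedding and turnover, 8 were tested. limma called 0 in KCs (before adjustment 2 above and 2 below WT), and edgeR and DESeq2 called 1 each. In DETCs Adam9, which encodes a membrane metalloprotease, was called higher, at 1305, 1475 and 1473 in WT and 3293 and 2654 in LC-/- libraries (log2 fold change 1.06, SE 0.12, limma adjusted p = 0.00991), and it was called in all 5 fits that left out a library. Over the alternatives that kept all libraries it was called in 9 of 12, with an adjusted p up to 0.179, and without a trend or with the keratinocyte share subtracted limma called 0 of all genes in DETCs. DESeq2 called 2 of this list higher (Adam9 and Timp3) and 1 lower (Pdia6) in DETCs. Adam10 and Adam17, genes of the proteases best known for ligand shedding, differed by -0.10 and -0.22 on the log2 scale in KCs (limma adjusted p = 0.511 and 0.0889).

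Other ligand and receptor pairs between KCs and DETCs gave 4 of 16 genes called above WT in KCs and 0 below it, beside 5.37% and 1.85% of all genes, with 7 and 0 before adjustment and 3 and 0 by DESeq2. Pvr, which encodes a ligand of the DETC receptors CD226, CD96 and TIGIT, rose from 590, 621 and 678 to 1157, 1046 and 1219 in KCs (log2 fold change 0.86, SE 0.08, limma adjusted p = 0.0193). In DETCs limma called Pvr alone in this list, while DESeq2 called 1 higher (Pvr) and 2 lower (Cd96 and Cd244a), and the Pvr values were 492, 541 and 488 in WT and 847 and 825 in LC-/- libraries (0.72, limma adjusted p = 0.0161). In KCs Cdh1, the gene of E-cadherin, rose by 0.65 and Nectin2, the gene of a second CD226 ligand, by 0.39 on the log2 scale (limma adjusted p = 0.0268 and 0.0345). Cd28, a T cell costimulatory receptor gene, was called as well, from at most 2.05 normalized counts in WT to 4.07 to 5.51 in LC-/- KCs, a few reads per library. Of the 14 DETC markers 1 (Cd3g) was called higher in the same libraries and 6 were below 0 in log2 fold change (median 0.11), and their summed level was 14.7 to 28.7 in WT and 17.3 to 39.9 in LC-/- KCs, with overlap.

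Of 14 genes for other adaptors and for receptors that signal through an adaptor, 7 were tested. limma, edgeR and DESeq2 called 0 in KCs (before adjustment 1 below WT by limma), and in DETCs limma called 1 lower, Klrb1c, which encodes NK1.1, at 324, 171 and 241 in WT and at most 108 in both LC-/- libraries (log2 fold change -1.18, SE 0.25, limma adjusted p = 0.0488). edgeR called 0 of this list in DETCs, and Klrb1c passed in 4 of 12 alternatives that kept all libraries, with an adjusted p up to 0.285. Cd247 and Fcer1g, the genes of the CD3 ζ and Fc receptor γ chains, were at 11124 ± 526 and 5679 ± 49.3 in WT, and at 10670 ± 421 and 5082 ± 170 in LC-/- DETCs (limma adjusted p = 0.791 and 0.335).

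Most of these list calls rested on all libraries being kept. Of the 10 list genes called in KCs, leaving out each library in turn kept Pvr in 2 of 6 fits and Mdm2, Ddit3 and the others in at most 1, and in DETCs Prf1 and Klrb1c held in 1 of 5 and Pvr in 2 of 5. Without LC-/- KC library 1 limma called 5 genes in KCs in all, and without WT DETC library 3 or LC-/- DETC library 2 it called 42 and 35 in DETCs.

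**Figure D5:**
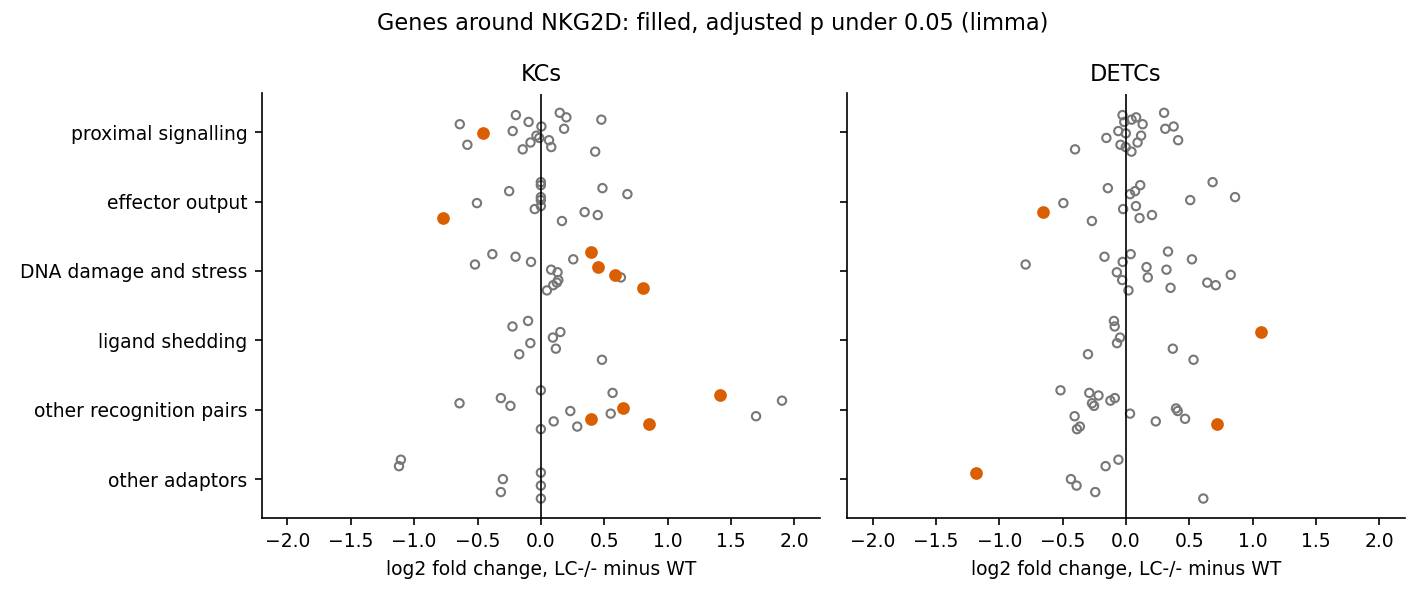
Log2 fold changes (horizontal axis, LC-/- minus WT) of each tested gene in 6 lists around NKG2D, for KCs (left) and DETCs (right). Points are genes, filled in orange at a limma adjusted p under 0.05. In KCs 4 of 16 DNA damage and stress genes and 4 of 16 recognition genes are filled on the right of 0, and in DETCs Adam9 lies farthest to the right.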

How the data were processed

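Poly-A RNA of sorted KCs and DETCs was sequenced as paired reads of 75 bases. The authors removed adapters and reads under a quality of 20 with cutadapt, aligned reads to GRCm38 with hisat2, summed reads over each gene with featureCounts, and scaled the counts of a library by its median-of-ratios size factor. This deposited signal per gene, without log transformation or filter, is what was analysed. The strand setting and treatment of reads with several matches are not given in the sources used here. Whole reads were recovered by dividing each value by the smallest step of its library, and 100% of values were whole to within 0.01 reads.

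Log2 of the normalized count plus 1 was fitted with limma 3.58.1 (eBayes with trend, R 4.3.3) over 14419 genes with a CPM above 1 in at least 2 of 11 libraries. This rule follows the authors' description but was applied here to the recovered reads, and the number of genes kept differs from that of the study. Genotypes were compared within each population, WT DETCs with WT KCs, and both genotype differences by an interaction term. A gene was called at a Benjamini-Hochberg adjusted p under 0.05 over all tested genes. The labels name no animals, while a plot legend of the study describes each library as a separate animal. Alternatives were edgeR 4.0.16 (quasi-likelihood) and DESeq2 1.42.0 on recovered reads, pseudocounts of 0.5 and 8, no filter, a minimum mean of 10, quantile and TMM scaling, size factors within a population, no trend, 1 fit over all 11 libraries, subtraction of the keratinocyte share, a replicate block, and omission of each library. The limma step was also run on simulated counts for 14419 genes, with 200 genes of higher mean changed. That run does not cover changes in genes with few reads. Groups came from the labels.

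The genes and lists were chosen with earlier results of these data known. Genes named were the 8 of the NKG2D system, up to 5 called genes per list (otherwise up to 2 of the highest mean), the 3 most similar profiles per gene and markers beside a result. A few further list genes (Gzmb, Ifng, Adam10, Adam17, Cd247 and Fcer1g) were named after their values were seen. Positions and lengths came from GENCODE M21, and promoter sequences from RefSeq. No protein sequence was used here.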

Additional observations from a re-analysis of the deposited data

Results flagged for a closer look

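In 2 genes around NKG2D the genotype difference differed between the populations by the interaction test of limma. The 6 lists held 18, 14, 16, 8, 16 and 7 tested genes, and 0.798% of all 14419 tested genes were called. For Tnf the change in DETCs minus the change in KCs was 0.88 on the log2 scale (95% interval 0.48 to 1.27, adjusted p = 0.0492, 0.00108 to 0.214 over the alternatives). Tnf was lower in 3 of 3 LC-/- KC libraries, at 105 to 127 against 179 to 237 in WT, while the LC-/- DETC values of 2638 and 3264 overlapped with 2579 to 2875 in WT. The Tnf difference passed in 0 of 11 fits that left out a library, with an adjusted p of 0.0593 to 0.123. For Adam9 the difference was 0.91 (95% interval 0.62 to 1.19, adjusted p = 0.0106, 1.24e-06 to 0.0688 over the alternatives). It passed in all 11 fits that left out a library, and both LC-/- DETC libraries were above all WT DETC libraries, beside a KC change of 0.15. No group of this study had 4 or more libraries, so single libraries were not screened as outliers.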

How the results depend on the processing

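Ligands called in KCs numbered 0 by limma and 1 (H60c) with edgeR, DESeq2, a minimum mean of 10 and 1 fit over all 11 libraries. Of all 5 tested genes, limma called 1 in KCs, Tyrobp, which passed the filter through DETC libraries alone. The count was 0 without a filter, 2 in 1 fit over all 11 libraries, and 0 to 1 with a library left out. The counts in DETCs (0) and for the interaction (0) were the same under every alternative run, and between populations 5 were called throughout, with H60b as a sixth without a filter. With the replicate block, which pairs libraries by the number in their labels, the interaction again gave 0 and the population comparison 5. That pairing was not established, as correlations between deviations of same-numbered libraries were -0.06 (WT 1), 0.07 (WT 2), 0.12 (WT 3), 0.16 (LC-/- 2) and 0.13 (LC-/- 3), and 4 of 5 DETC libraries correlated best with their own number.

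Directions that turned were all of differences that did not pass. The Klrk1 interaction (0.0092) was -0.44 with edgeR, -0.51 with DESeq2, -0.056 with a pseudocount of 0.5, -0.21 with quantile normalization, -0.020 with TMM and -0.012 with the replicate block. The Klrk1 difference in DETCs was -0.0074 with quantile normalization. With a library left out, the Klrk1 interaction was -0.43 to 0.38, Klrk1 in KCs -0.13 to 0.68, Hcst in KCs -0.80 to 0.037, Hcst in DETCs -0.15 to 0.081, the Hcst interaction -0.073 to 0.76, and Ulbp1 in DETCs -0.34 to 0.18. The causes were not tested, beyond 0 to 2 reads of Klrk1 and Hcst per KC library. Quantile normalization moved the median of all genes between populations from 0.07 to -0.24, and genotype medians stayed within 0.05 of 0. The number of all genes called ranged from 5 to 1783 in KCs and from 0 to 1094 in DETCs. Depth limits H60b (at most 7 reads per library), Tyrobp in KCs and Ulbp1 in KCs (24 to 65 reads).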
